A study of Mus musculus with 9 samples.

Results

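The transcriptional response of GT1-7-OX1 cells to 3 h of orexin A (OxA) was examined in 6 of the 9 RNA-Seq samples of the series, 3 treated with OxA for 3 h and 3 treated with vehicle. GT1-7 is a mouse hypothalamic line derived from GnRH-expressing neurons and immortalized with the SV40 T-antigen. Cells of both groups carried human OX1, delivered by lentivirus under the CMV promoter together with copGFP under EF1, and the transduced cells were expanded for use, so the receptor was expressed from a transgene in every sample. OxA was given at 200 nM in a change of medium (high glucose DMEM with serum) and the cells were collected 3 h later, whereas vehicle cells had water added and were collected at 8 h only. Besides OxA, the 3 h and vehicle samples thus differed in how long ago their medium was changed, and the contributions of OxA and of time cannot be told apart in any 3 h difference given here. The preparation was performed 3 times for n = 3 per group, and the p-values measure the spread between these samples.

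Orexin A is a hypothalamic peptide that promotes wakefulness and feeding. Its receptor OX1 couples mainly to Gq, which activates phospholipase C, releases calcium from internal stores and activates protein kinase C, and the MAP kinase ERK is activated downstream. In neurons, calcium and ERK signals are followed first by immediate early genes, which need no new protein synthesis, and then by genes for signalling feedback, secreted factors and cell structure.

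All genes entered the comparison. Counts assigned to genes totalled 16487142 to 17877485 per OxA sample and 17293093 to 18168541 per vehicle sample, so depth was similar between the groups. Gnrh1, which encodes the hormone that defines the line, stood at 3924 ± 304 TPM in vehicle and 3870 ± 119 TPM after OxA (SD, n = 3 each). Of 12 neuronal markers 7 reached 2 TPM in vehicle, while Nefl was at 0 in all 6 samples and Snap25, Stmn2 and Rbfox3 averaged 0.109, 0.019 and 0.034 TPM, so several markers of mature neurons were absent or nearly so. Few markers of astrocytes (2 of 9), oligodendrocytes (2 of 9), microglia (2 of 10), endothelial cells (1 of 8) and fibroblasts (2 of 8) reached 2 TPM, and Aqp4, Slc1a3, Gjb6, Mobp, C1qa and Trem2 were at 0 throughout. Summed astrocyte markers ranged from 150 to 170 TPM in vehicle and from 173 to 180 TPM after OxA, mostly Glul, and summed microglial markers from 9.76 to 11.9 and from 11.5 to 13.4 TPM. Among tested markers, Map2 (-0.28) and Tubb3 (-0.36) of the 7 neuronal ones fell on the log2 scale. Glul (0.24) and Fgfr3 (0.24) of the astrocytic ones rose and S100b (-1.12) fell. Of 3 microglial ones Csf1r (0.64) and Cd68 (0.81) rose and 1 was not called. The microglial marker Tmem119 averaged 5.22 TPM in vehicle and 3.91 TPM after OxA. Of the tested oligodendrocyte markers 1 of 2 fell, as did 1 of 6 fibroblast ones, and the 1 endothelial marker tested rose. The part of these markers in the results was not tested. In bulk RNA, fewer cells of a type and less RNA per cell cannot be told apart.

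Of 37411 genes in the count table, 15352 had enough reads to be tested, and 5973 of them (38.9%) were called at an adjusted p under 0.05 by edgeR's quasi-likelihood test. Called genes were split nearly evenly between 3104 that rose (20.2% of those tested) and 2869 that fell (18.7%). Scaling to the upper quartile turned the split to 2426 that rose and 3719 that fell. Changes of more than 2-fold were fewer and mostly upward, with 426 genes up (2.77%) and 214 down (1.39%), and 107 genes rose more than 4-fold while 8 fell as far. The median log2 fold change over all genes tested was -0.0040, and over the called genes the median size was 0.40. In 5721 of the called genes (95.8%) the groups did not overlap, so a lack of overlap is not particular to the genes named below. The samples fell apart by group, with distances of 60.7 to 69.0 between a vehicle and an OxA sample and of 34.2 to 40.1 between samples of 1 group (Euclidean distances of log2 CPM over all genes tested).

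Genes that changed 2-fold are first described by their type, level and structure, without a test. Among the annotated genes up 2-fold 75.1% were protein-coding, as were 64.3% of those down 2-fold and 81.6% of all genes tested. Their median normalized counts were 106 for genes up 2-fold and 27.1 for genes down 2-fold, against 342 for all tested. Protein-coding genes of both 2-fold groups had a median of 6 exons in the transcript with the most exons, against 9 for all tested. Median spans of protein-coding genes were 22486.5 bp for those up, 20931 bp for those down and 24854 bp for all. Of the 426 genes up 2-fold, 267 appear in the tables or text of the study or in an earlier account of these data, as do 39 of the 214 down 2-fold. The genes with the largest changes among the others, averaging 50 or more normalized counts and with groups that did not overlap, are described next.

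Nfatc2, a transcription factor released to the nucleus by the calcium-activated phosphatase calcineurin, had normalized counts of 111, 102 and 79.1 in vehicle and 236, 296 and 244 after OxA (log2 fold change 1.40, SE 0.13, adjusted p = 9.43e-09). The lowest OxA sample exceeded the highest vehicle sample, which the choice of genes required, and did so by a wide margin.

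Secreted and signalling products were also among the leading rises. Wisp1, a matricellular protein of the CCN family, went from 46.4, 56.9 and 47.3 to 97.2, 109.9 and 148 normalized counts (log2 fold change 1.24, SE 0.18, adjusted p = 6.02e-06). Pla2g2e, a secreted phospholipase A2, had 33.4, 22.2 and 43.4 in vehicle and 84.1, 71.5 and 67.2 after OxA (log2 fold change 1.16, SE 0.21, adjusted p = 1.27e-04). Counts of both were low. Tnfaip3 encodes A20, a ubiquitin-editing enzyme that restrains NF-kappaB, and its counts were 38.1, 33.8 and 63.7 against 97.2, 115 and 83.2 (log2 fold change 1.12, SE 0.21, adjusted p = 1.45e-04). Ankrd1, an ankyrin-repeat protein known as a target of mechanical and YAP signalling, was more abundant, at 396, 349 and 564 in vehicle and 841, 927 and 1061 after OxA (log2 fold change 1.11, SE 0.19, adjusted p = 0.00668). Its lowest OxA sample lay well above its highest vehicle sample, although the choice of these genes required some separation. Idi1, the isopentenyl diphosphate isomerase of the mevalonate pathway, was tight within both groups, with 72.4, 68.5 and 67.5 in vehicle and 141, 161 and 149 after OxA (log2 fold change 1.11, SE 0.14, adjusted p = 6.95e-07). Ccdc81, a coiled-coil gene, had 31.6, 23.2 and 43.4 in vehicle and 88.4, 87.5 and 68.2 after OxA (log2 fold change 1.31, SE 0.21, adjusted p = 2.61e-05).

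A further 7 of the 15 largest rises were non-coding or predicted loci, all of which lie over another gene. Gm22249 (1.31), Gm44317 (1.27) and 9330154J02Rik (1.14) lie opposite Wdr1, Erc1 and Tpbg, while Gm38009 (1.21), Gm17024 (1.21), Gm43009 (1.17) and B230216N24Rik (1.13) lie on the strand of Lamc1, Ifrd1, Camk2d and Pam (log2 fold changes). Libraries were made with a kit that keeps strand, but the strand setting of the counting is not given in the sources used here, so reads of such a locus and of the gene it overlaps cannot be told apart.

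Promoter sequences were read for the named genes from RefSeq (GRCm38.p6), which gave a 300-base promoter for 167 of 229, and for 256 of the 426 genes up 2-fold. Because that is 60.1% of the set, less than the 80% needed, no motif share is given for it. The letters TGAGTCA or TGACTCA, which are reverse complements and the core bound by AP-1 (FOS and JUN family dimers), were present on either strand in 5.2% of all 32851 promoters in the table. That share counts all 300 bases, whereas for named genes only the 250 bases before the start were searched. A promoter was in the table for 53 of the 78 named genes up 2-fold. Of these genes 5 gave a stretch with the letters, shown 5′ to 3′ on the strand of the gene with the letters in capitals. Not every named gene up 2-fold was searched, so a gene not shown, such as Hbegf, cannot be taken to lack the letters. A match is a description of the sequence and was not tested as a binding site.

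Pla2g2e: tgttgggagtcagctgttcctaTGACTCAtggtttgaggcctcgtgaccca
Tnfaip3: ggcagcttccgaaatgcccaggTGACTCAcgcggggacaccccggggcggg
Hrh1: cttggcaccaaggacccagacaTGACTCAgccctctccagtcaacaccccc
Adra1b: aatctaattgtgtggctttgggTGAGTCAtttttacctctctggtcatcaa
Slc7a1: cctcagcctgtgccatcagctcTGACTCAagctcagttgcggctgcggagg

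The stretches lie at chr4:138877833-138877883, chr10:19015518-19015568, chr6:114458284-114458334, chr11:43901407-43901457 and chr5:148399999-148400049 (strands plus, minus, plus, minus and minus), and the letters begin 87, 136, 216, 198 and 123 bases before the annotated start. Hrh1 and Adra1b encode receptors for histamine and noradrenaline and Slc7a1 an amino acid transporter, and their values are given with their groups.

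**Figure D1:**
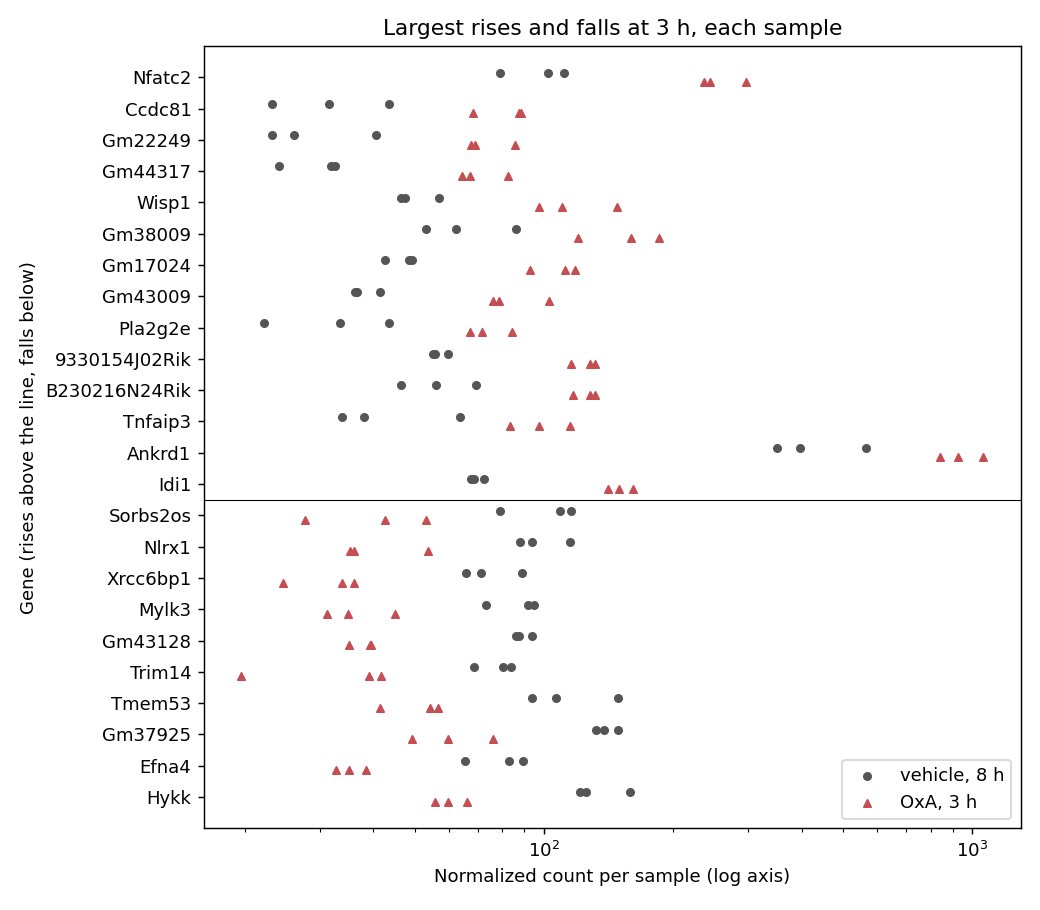
Normalized counts (log axis) of 14 of the 15 genes with the largest rises (above the line) and the 10 with the largest falls (below the line) in each of the 3 vehicle samples (grey circles) and the 3 OxA samples (red triangles). The groups do not overlap for any of these genes, which the choice of genes required.

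The 10 largest falls were in genes of low to moderate level. Nlrx1, a mitochondrial member of the NOD-like receptor family that tempers antiviral signalling, fell from 115, 87.8 and 93.6 to 53.5, 35.2 and 36.1 normalized counts (log2 fold change -1.25, SE 0.19, adjusted p = 1.15e-05). Trim14, an adaptor in the same antiviral pathway, had 83.6, 68.5 and 80.1 in vehicle and 19.7, 41.6 and 39.1 after OxA (log2 fold change -1.20, SE 0.22, adjusted p = 1.06e-04). In Trim14 the first OxA sample was well below the other OxA samples, and all of them were below vehicle. Mylk3, a myosin light chain kinase best known from heart muscle, fell from 94.7, 91.7 and 73.3 to 34.9, 44.8 and 31.1 (log2 fold change -1.23, SE 0.19, adjusted p = 1.65e-05). Efna4, a membrane-bound ephrin ligand, fell from 89.1, 83.0 and 65.6 to 32.8, 38.4 and 35.1 (log2 fold change -1.16, SE 0.19, adjusted p = 3.44e-05). Hykk, a kinase that acts on hydroxylysine, fell from 122, 125 and 159 to 55.7, 59.8 and 66.2 (log2 fold change -1.16, SE 0.16, adjusted p = 2.76e-06). All OxA samples of these genes lay below all of their vehicle samples, which the choice of genes required. Xrcc6bp1, named for its binding to the DNA repair protein Ku70, and the membrane protein gene Tmem53 fell by 1.25 and 1.19 on the log2 scale. The remaining falls were Sorbs2os (-1.29), which lies opposite Sorbs2, and Gm43128 (-1.23) and Gm37925 (-1.17), which lie within Gsn and Dner on their strand.

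Changes in the number of counts were ranked among the same genes, those outside the tables and text of the study and an earlier account, so abundant genes beyond them, such as Actb, are not ranked here. Of these genes Vim, the intermediate filament protein vimentin, gained the most, from 25860.1, 24386 and 26618 to 40780.1, 39781 and 34477 normalized counts (log2 fold change 0.58, SE 0.055, adjusted p = 8.89e-08). The third OxA sample was the lowest of its group and still above all vehicle samples, which the choice of genes required. Azin1, which binds antizyme and so spares ornithine decarboxylase in polyamine synthesis, rose from 7863, 7963 and 8789 to 13586, 14668 and 14619 (log2 fold change 0.80, SE 0.047, adjusted p = 2.84e-12). Mapk6, the atypical kinase ERK3, and Slc5a3, the sodium-dependent myo-inositol transporter, each rose by 0.70 on the log2 scale (adjusted p = 8.48e-12 and 9.42e-06). Slc5a3 lies within Mrps6 on the same strand.

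Of the same genes, Rb1cc1, a subunit of the ULK complex that starts autophagy, lost the most, from 8718, 9026 and 9278 to 5671, 6194 and 6464 (log2 fold change -0.56, SE 0.047, adjusted p = 1.41e-09). Kif5c, a heavy chain of the kinesin-1 motor that carries cargo along axons, fell from 8120.4, 8048 and 8021 to 5758, 5531 and 5828 (log2 fold change -0.50, SE 0.041, adjusted p = 8.48e-10). Replicates of Kif5c were close together in both groups. Rnf213, a very large ubiquitin ligase, fell by 0.52 on the log2 scale, Dlx6os1, a long non-coding RNA that regulates Dlx genes, fell by 0.57, and Fras1, an extracellular matrix protein, fell by 0.38.

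Groups of genes with a shared role were counted next, against the 20.2% of all tested genes that rose and the 18.7% that fell. These background shares include genes of low count and were not matched to the level of the lists. By DESeq2 2659 of 16110 tested genes rose and 2124 fell, both smaller shares, so DESeq2 counts of list members are to be read against these. Median normalized counts were 967 for genes called higher, 357 for those called lower and 342 for all tested. Of 12143 tested genes annotated as protein-coding, 2733 rose and 2488 fell. The lists were drawn up with results of these data known and include genes that the study names, and members named beside the leading ones of each list were chosen after their values were seen, so their counts describe the response and are not independent evidence of it.

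**Figure D2:**
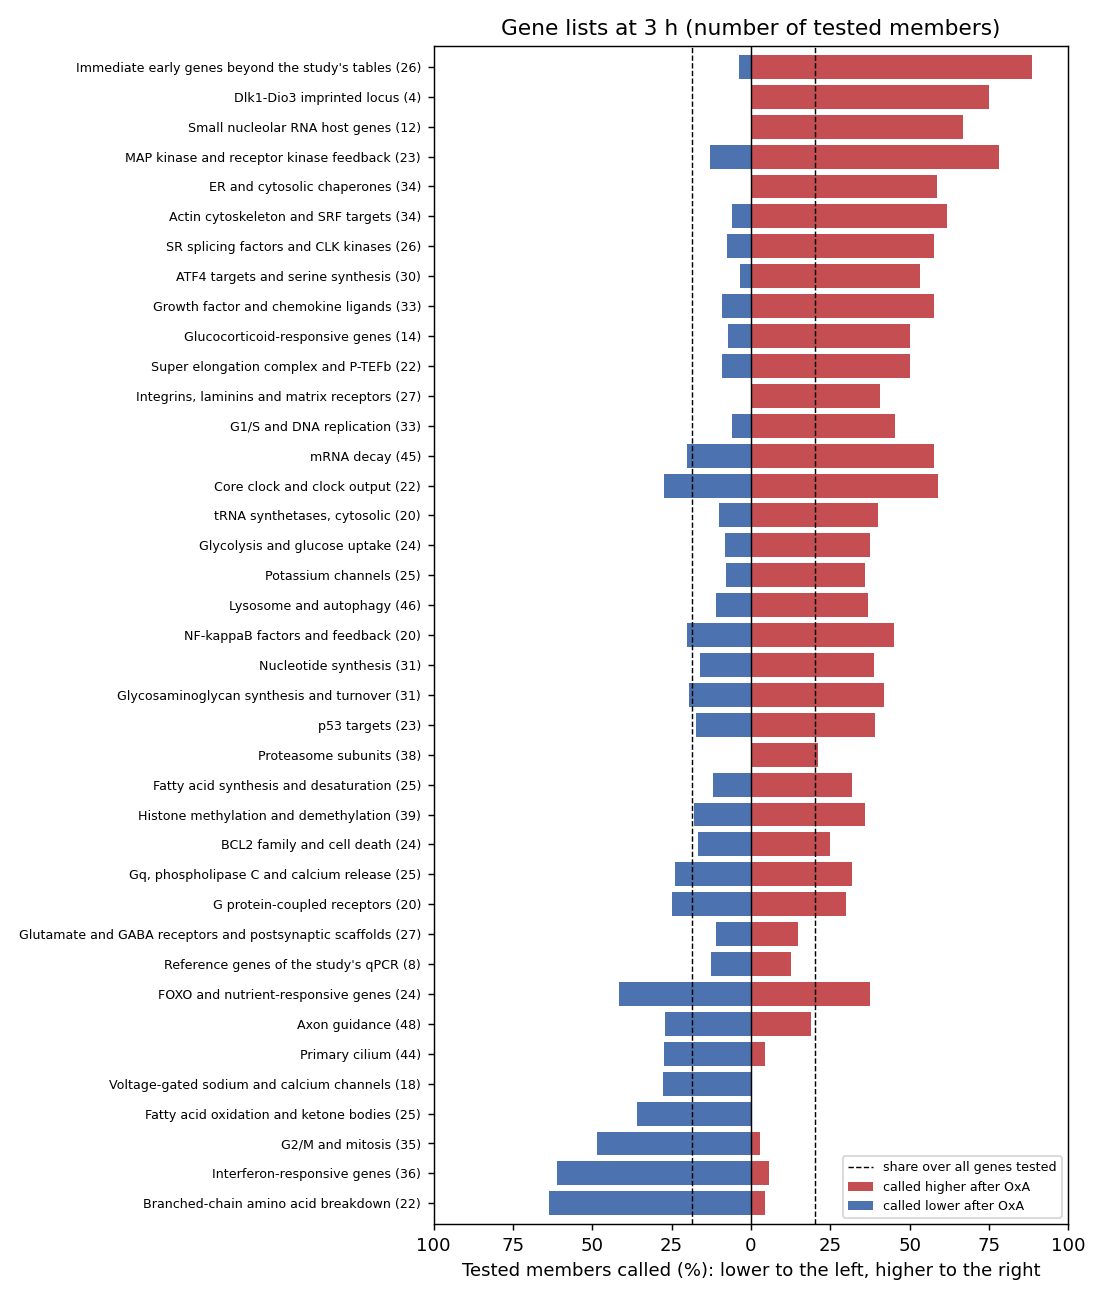
Share of the tested members of the gene lists shown that were called higher (red, to the right) or lower (blue, to the left) at 3 h of OxA, with the number of tested members in parentheses. Dashed lines mark the shares over all genes tested, 20.2% higher and 18.7% lower. Immediate early genes and MAP kinase feedback lie farthest to the right, and branched-chain amino acid breakdown and interferon-responsive genes lie farthest to the left.

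Components of the receptor's own pathway changed in both directions. Of 25 tested genes of Gq, phospholipase C and calcium release, 8 rose and 6 fell, with a median log2 fold change of 0.044, and with upper-quartile scaling 7 rose and 8 fell. Without OxA replicate 3, 3 fell. Prkca, protein kinase C alpha, rose from 920.2, 879.9 and 1098 to 1733, 1410.1 and 1570.5 normalized counts (log2 fold change 0.70, SE 0.088, adjusted p = 3.41e-05), while Plcb1, the phospholipase that Gq activates, fell from 668, 677 and 822 to 455, 449 and 516 (log2 fold change -0.61, SE 0.083, adjusted p = 3.79e-06). Neither gene's groups overlapped, as in 95.8% of all called genes. Dgkh, a kinase that removes diacylglycerol, rose by 0.49 on the log2 scale. Counts assigned to mouse Hcrtr1, the gene for OX1, were 1346, 1101 and 1127 in vehicle and 2118, 1799.7 and 1584 after OxA (log2 fold change 0.62, SE 0.12, adjusted p = 0.00735). Whether these reads came from the human transgene or from the mouse gene was not tested.

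Immediate early genes rose almost as a group. Of 26 tested members outside the tables of the study, 23 rose and 1 fell, with a median log2 fold change of 0.71. Fosl1, the AP-1 subunit FRA1, rose from 60.4, 76.2 and 59.8 to 145, 136 and 137 (log2 fold change 1.09, SE 0.15, adjusted p = 2.41e-06). Nfil3, a basic leucine zipper repressor, rose from 138, 138 and 164 to 338, 285 and 293 (log2 fold change 1.06, SE 0.11, adjusted p = 3.62e-08), and Sik1, a salt-inducible kinase that restrains CREB coactivators, from 503, 542 and 571 to 1024, 1111 and 1146 (log2 fold change 1.02, SE 0.066, adjusted p = 1.45e-11). Samples of each group were close together and the groups were far apart. Elk3, a ternary complex factor that acts with SRF, rose by 0.99 on the log2 scale. The only member that fell was Cited2 (-0.16), and Crem (-0.049) and Gem (0.12) were not called.

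Genes that restrain MAP kinase and receptor tyrosine kinase signalling rose strongly. Of 23 tested, 18 rose, 10 of them more than 2-fold, and 3 fell (median 0.65). Errfi1, the cytosolic inhibitor MIG6 of the EGF receptor, rose from 485, 477 and 596 to 8187, 7510.4 and 6796 normalized counts (log2 fold change 3.85, SE 0.092, adjusted p = 3.38e-11). The ERK phosphatase gene Dusp5 rose from 93.8, 126 and 119 to 1408, 1352 and 1109 (log2 fold change 3.51, SE 0.11, adjusted p = 8.89e-14), Dusp2 from 14.9, 17.4 and 14.5 to 122, 156 and 159 (log2 fold change 3.22, SE 0.20, adjusted p = 7.10e-12) and Dusp4 from 22.3, 14.5 and 40.5 to 326, 196 and 189.5 (log2 fold change 3.20, SE 0.36, adjusted p = 2.13e-04). The OxA samples of Dusp4 were widely spread, and even its lowest OxA sample was several times its highest vehicle sample. Of the Sprouty genes, which inhibit ERK signalling below growth factor receptors, Spry1 fell (-0.46) and Spry4 rose (1.64).

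Genes for secreted ligands rose in the majority. Of 33 growth factor and chemokine genes tested, 19 rose, 11 of them more than 2-fold, and 3 fell (median 0.60), with 1 call lower by DESeq2 and without vehicle replicate 1 or 3. Areg, the EGF receptor ligand amphiregulin, went from 13.0, 13.5 and 16.4 to 366, 188 and 214 (log2 fold change 4.15, SE 0.35, adjusted p = 8.80e-06), and its relative Hbegf from 215, 199 and 282 to 1545, 1366 and 1452 (log2 fold change 2.65, SE 0.093, adjusted p = 1.89e-13). Vegfa, the angiogenic factor, rose from 643, 705 and 605 to 3781, 2966 and 2991 (log2 fold change 2.32, SE 0.11, adjusted p = 1.82e-07), and the neutrophil chemokine gene Cxcl1 from 21.4, 25.1 and 27.0 to 95.0, 89.7 and 68.2 (log2 fold change 1.78, SE 0.21, adjusted p = 2.71e-07). For all of these the first OxA sample was the highest of its group. Nrg1 (-0.64), Fgf1 (-0.36) and Gdf11 (-0.16) fell, and Bdnf was not called (0.14, adjusted p = 0.792).

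Some receptors and ion channels were altered. Only 20 of 54 listed G protein-coupled receptors had enough reads to be tested, of which 6 rose and 5 fell. Cckbr, the cholecystokinin B receptor, rose from 28.8, 17.4 and 36.7 to 241, 232 and 217 (log2 fold change 3.05, SE 0.17, adjusted p = 1.92e-12), Hrh1, the histamine H1 receptor, from 180.1, 149 and 232 to 842, 797 and 814 (log2 fold change 2.13, SE 0.10, adjusted p = 4.38e-12), and Adra1b, an alpha1 adrenergic receptor, from 255, 199.7 and 199.7 to 619, 724 and 614 (log2 fold change 1.58, SE 0.095, adjusted p = 1.02e-11). These 3 receptors couple to Gq as OX1 does, and their OxA samples formed compact groups well above vehicle. Aplnr, the apelin receptor, fell from 198, 261 and 249 to 98.3, 125 and 130.4 (log2 fold change -0.997, SE 0.13, adjusted p = 1.68e-06).

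None of 18 tested genes for voltage-gated sodium and calcium channels rose by edgeR, by DESeq2 or at an unadjusted p under 0.05 (0 in each), and 5 fell. Scn9a, the sodium channel Nav1.7, fell from 107, 87.8 and 101 to 39.3, 36.3 and 43.1 (log2 fold change -1.31, SE 0.17, adjusted p = 1.84e-06), and Scn2a1 (-0.61), Scn3a (-0.58), Scn8a (-0.44) and the calcium channel subunit gene Cacnb1 (-0.56) fell less. Potassium channel genes were called higher more often than lower, with 9 of 25 up and 2 down. Kcnk3, a leak channel of the TASK family, rose from 101, 85.9 and 90.7 to 374, 364 and 345 (log2 fold change 1.96, SE 0.11, adjusted p = 8.52e-13), and Kcnf1, a modulatory subunit that is silent alone, from 41.8, 28.9 and 49.2 to 151, 183 and 162 (log2 fold change 2.04, SE 0.17, adjusted p = 1.36e-09). The inward rectifier gene Kcnj2 went the other way, from 180.1, 220 and 155 to 61.1, 44.8 and 49.1 (log2 fold change -1.84, SE 0.16, adjusted p = 3.62e-09). In all 3 channels the groups were widely separated. Most genes for glutamate and GABA receptors and postsynaptic scaffolds were not called (20 of 27), with 4 up and 3 down. Without vehicle replicate 2 the count down was 1, and without vehicle replicate 3 or with upper-quartile scaling it was 5. Those that were included the synaptic plasticity genes Arc (2.64) and Homer1 (1.08), which rose, and Dlg3, the scaffold SAP102, which fell (-0.89).

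The cytoskeleton and the cell surface were a further area of change. Of 34 actin cytoskeleton genes and targets of the actin-sensing factor SRF, 21 rose and 2 fell (median 0.23). Flnc, the muscle filamin that crosslinks actin, rose from 49.2, 48.2 and 38.6 to 317, 400.3 and 324 (log2 fold change 2.93, SE 0.14, adjusted p = 6.48e-14), and Mical2, which oxidizes nuclear actin, from 154, 143 and 167 to 652, 658 and 695 (log2 fold change 2.11, SE 0.084, adjusted p = 2.72e-15). Both were far lower in every vehicle sample than in any OxA sample. Fhl2, a LIM-domain cofactor, rose by 1.67 on the log2 scale. Actb itself rose slightly (0.21).

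Of 27 integrins, laminins and matrix receptors 11 rose and 0 fell by edgeR, with 1 lower at an unadjusted p under 0.05, 1 lower by DESeq2 and 2 lower with upper-quartile scaling, with the replicate block or without OxA replicate 2. Itga5, the fibronectin receptor subunit, rose from 530.2, 472 and 482 to 1737, 1626 and 1500.3 (log2 fold change 1.71, SE 0.066, adjusted p = 1.66e-15), and Cd44, the hyaluronan receptor, from 1045, 909 and 1129.5 to 2797, 2797 and 2417 (log2 fold change 1.38, SE 0.076, adjusted p = 3.14e-09). The heparan sulfate proteoglycan gene Gpc1 rose by 0.68 on the log2 scale. Of 31 glycosaminoglycan genes 13 rose and 6 fell, and chondroitin sulfotransferase genes Chst11 (1.14) and Chst15 (0.94) were among those with the largest rises. Of 48 axon guidance genes 9 rose, a share of 18.8% that is near the background of 20.2%, and 13 fell (27.1%). Sema7a, a membrane-anchored semaphorin that binds integrins, rose from 23.2, 29.9 and 31.8 to 468, 331 and 299 (log2 fold change 3.69, SE 0.20, adjusted p = 4.77e-10), while Flrt3, a ligand of Unc5 receptors, fell from 998, 1068 and 1028 to 317, 344 and 386 (log2 fold change -1.56, SE 0.073, adjusted p = 5.13e-14). Of the Eph receptors named, Epha2 rose (1.28) and Epha4 fell (-1.09).

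Metabolic genes were called in both directions. Among 24 genes of glycolysis and glucose uptake, 9 rose and 2 fell, or 5 and 4 with upper-quartile scaling, and the median was only 0.043. The 2 large rises were in Hk2, a hexokinase, from 298, 286 and 285 to 870.1, 844 and 909.6 (log2 fold change 1.60, SE 0.07, adjusted p = 1.72e-14), and in Pfkfb3, which makes the activator of phosphofructokinase, from 78.9, 97.4 and 107 to 334, 371 and 312 (log2 fold change 1.84, SE 0.12, adjusted p = 1.38e-11). Samples of both genes were close within each group. Pdk2, a kinase that inhibits pyruvate dehydrogenase, fell (-0.91). The genes of the glycolytic enzymes Aldoa (0.052), Gapdh (0.051) and Pkm (0.026) were not called.

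Branched-chain amino acid breakdown had the highest share of falls of all lists drawn, with 14 of 22 members lower and 1 higher (median -0.24). Ppm1k, the phosphatase that activates the branched-chain ketoacid dehydrogenase, fell the most (-1.49). Dbt, the E2 subunit of that dehydrogenase, fell from 241, 206 and 232 to 106, 146 and 144 (log2 fold change -0.77, SE 0.12, adjusted p = 2.49e-05), and Hibch, an enzyme of valine breakdown, from 336, 297 and 331 to 199.8, 184 and 224 (log2 fold change -0.67, SE 0.098, adjusted p = 8.24e-06). Mccc1 (-0.41), Mccc2 (-0.32) and Ivd (-0.36), which act on leucine, also fell. The member that rose was Bcat1 (1.39), the cytosolic transaminase of the first, reversible step. Of 25 fatty acid oxidation genes 9 fell (36.0%), 16 were not called and 0 rose by edgeR, with 0 higher by DESeq2 or at an unadjusted p under 0.05. The count lower was 5 by DESeq2, 4 without vehicle replicate 1 and 5 without vehicle replicate 2 or OxA replicate 2. Cpt2, the inner mitochondrial carnitine palmitoyltransferase, fell from 378, 344 and 380.1 to 192, 249 and 211 (log2 fold change -0.76, SE 0.098, adjusted p = 1.17e-06), and Ppara, a nuclear receptor that controls these enzymes, from 79.9, 70.4 and 58.8 to 41.5, 34.2 and 46.1 (log2 fold change -0.78, SE 0.19, adjusted p = 0.00258). Neither gene's groups overlapped, as in 95.8% of all called genes. Fatty acid synthesis genes rose in 8 and fell in 3 of 25, and in 5 and 5 with upper-quartile scaling.

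Many genes of amino acid supply and protein quality rose. Of 30 ATF4 targets and serine synthesis genes 16 rose and 1 fell (median 0.30). Chac1, which degrades glutathione, rose from 249.8, 173 and 194 to 878, 758 and 717 (log2 fold change 1.93, SE 0.11, adjusted p = 1.14e-09), the cystine transporter gene Slc7a11 from 105, 92.6 and 83.9 to 275, 180.4 and 188 (log2 fold change 1.19, SE 0.16, adjusted p = 2.86e-06) and the cationic amino acid transporter gene Slc7a1 from 2302, 2183 and 2098 to 4899, 4273 and 4368 (log2 fold change 1.04, SE 0.053, adjusted p = 5.05e-13). Atf4 itself rose by 0.86 on the log2 scale. All OxA samples of these genes were above vehicle, and the groups were likewise apart in 95.8% of all called genes. Cytosolic tRNA synthetase genes rose in 8 and fell in 2 of 20, led by Iars (0.51). Of 34 chaperone genes 20 rose and 0 fell by edgeR, with 0 lower by DESeq2 or at an unadjusted p under 0.05, and 12 rose with upper-quartile scaling. Their rises were mostly small, with Dnajb9, a cofactor of the ER chaperone BiP, at 0.72 and Herpud1, of ER-associated degradation, at 0.50. Of 38 proteasome subunits 8 rose and 0 fell by edgeR, by DESeq2 or at an unadjusted p under 0.05, a share of 21.1% that is near the background of 20.2%, and 5 rose and 3 fell with upper-quartile scaling. Lysosome and autophagy genes rose in 17 and fell in 5 of 46, and in 11 and 6 with upper-quartile scaling, with the lysosomal regulators Tfeb (0.58) and Tfe3 (0.42) both higher. Nucleotide synthesis genes rose in 12 and fell in 5 of 31 but split 9 to 9 with upper-quartile scaling, and 3 fell by DESeq2 and without any 1 of the vehicle replicates or OxA replicate 2.

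**Figure D3:**
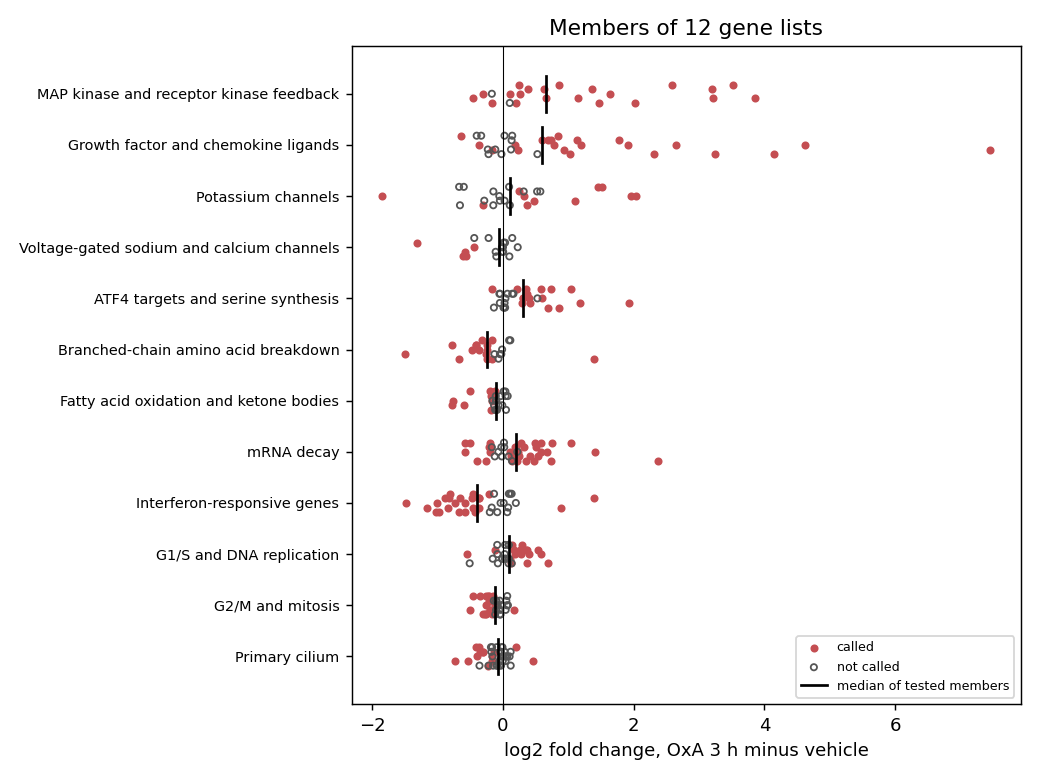
log2 fold changes (OxA 3 h minus vehicle) of every tested member of 12 gene lists, with called genes filled in red, genes not called open, and the median of each list as a vertical black bar. Ligands and feedback genes reach the largest values, whereas members of branched-chain amino acid breakdown, interferon-responsive genes and G2/M lie mostly below 0.

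Clock, hormone-responsive and nutrient-responsive genes were called often and in both directions. Of 22 core clock and output genes 13 rose and 6 fell. Bhlhe40, a repressor of clock activators, rose from 203, 257 and 234 to 639.8, 528 and 617 (log2 fold change 1.36, SE 0.093, adjusted p = 5.23e-11) and Per2 from 123, 125 and 168 to 282, 257 and 249.7 (log2 fold change 0.92, SE 0.12, adjusted p = 1.39e-06), while the output gene Dbp fell from 92.9, 92.6 and 111 to 40.4, 50.2 and 50.1 (log2 fold change -1.07, SE 0.17, adjusted p = 2.26e-05). Per1 was not called (0.11). Vehicle was collected later after the medium change than the OxA samples, and for these genes too OxA and time cannot be told apart. Of 14 glucocorticoid-responsive genes 7 rose and 1 fell. Sgk1, a kinase that regulates ion transport, rose from 238, 258 and 296 to 2699, 2820.1 and 2546 (log2 fold change 3.35, SE 0.069, adjusted p = 4.15e-20), but the classical targets Fkbp5 (-0.076) and Per1 were not called and Zbtb16 fell (-1.09). FOXO and nutrient-responsive genes split into 9 that rose and 10 that fell of 24. Sesn1, a sestrin that restrains mTORC1, fell from 1893, 2012 and 1805 to 982, 1038 and 1048 (log2 fold change -0.90, SE 0.054, adjusted p = 4.12e-12), while Irs2, an adaptor of the insulin receptor, rose from 579, 563 and 634 to 1208, 1084 and 1008 (log2 fold change 0.89, SE 0.07, adjusted p = 4.62e-10).

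Most interferon-responsive genes were lower. Of 36 tested, 22 fell (61.1%), 4 of them more than 2-fold, 2 rose and 12 were not called (median -0.40). Iigp1, an immunity-related GTPase, fell from 1198, 1413 and 1373 to 568, 636 and 586 (log2 fold change -1.15, SE 0.068, adjusted p = 3.35e-12), its relative Gm4951 from 322, 401 and 326 to 132, 129 and 116 (log2 fold change -1.48, SE 0.11, adjusted p = 2.39e-10) and Irgm2 from 662, 705 and 693 to 349, 374 and 289.8 (log2 fold change -1.03, SE 0.082, adjusted p = 5.76e-10). Members of this GTPase family are similar in sequence, so their counts may share reads. Stat2 (-0.73) and Irf9 (-0.58), factors that carry the interferon signal, fell as well, whereas the antigen presentation genes B2m (0.092), H2-K1 (0.068) and H2-D1 (0.082) were not called. Irf5 rose from 27.9, 52.1 and 27.0 to 83.0, 107 and 92.3 (log2 fold change 1.40, SE 0.21, adjusted p = 1.61e-05), and the other member that rose was Irf2 (0.89), a repressor of interferon targets.

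The letters GAAANNGAAA or their reverse complement TTTCNNTTTC, the core of the interferon-stimulated response element, were present on either strand in 3.44% of all 32851 promoters, and 61 promoters held both these and the AP-1 letters. A promoter was in the table for 15 of the 22 list members that fell, 68.2%, so no share is given for the list. Stretches were read for 9 of these, which hold the letters in the 250 bases before the start. The share of 3.44% counts all 300 bases. Not every member was searched, so a gene without a stretch, such as Iigp1 or Gm4951, cannot be taken to lack the letters. Of the 9, 4 are shown, with every match in capitals. They were chosen after their values were seen, because they carry the letters in genes of this group.

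Irgm2: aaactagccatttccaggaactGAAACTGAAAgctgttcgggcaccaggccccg
Igtp: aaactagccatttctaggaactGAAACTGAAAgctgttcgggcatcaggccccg
Gbp7: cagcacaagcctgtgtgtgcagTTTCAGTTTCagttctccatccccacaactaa
Ifit1: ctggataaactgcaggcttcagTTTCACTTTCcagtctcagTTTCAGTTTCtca

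They lie at chr11:58214891-58214944, chr11:58199500-58199553, chr3:142530261-142530314 and chr19:34640763-34640816, all on the plus strand. Igtp (-0.66), Gbp7 (-0.88) and Ifit1 (-0.81) fell along with Irgm2. The stretches of Irgm2 and Igtp are identical at 52 of 54 positions. In GENCODE M21 Irgm2 spans chr11:58199618-58222782 and overlaps Igtp on the same strand, so its RefSeq start and the stretch shown lie inside that longer gene model, and reads of the genes may not be told apart. NF-kappaB factors and feedback genes were called in both directions, with 9 of 20 up and 4 down, the latter 2 by DESeq2. Rela, a subunit of the factor, rose by 0.55 and the inhibitor genes Nfkbid and Nfkbiz by 0.98 and 0.82 on the log2 scale, while Nfkbia, the classical feedback inhibitor, was not called (0.071).

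Cell death and p53-responsive genes showed no common direction. Of 24 cell death genes 6 rose and 4 fell, which became 3 and 5 with upper-quartile scaling. By DESeq2 1 fell, without vehicle replicate 1 the count lower was 2, and without OxA replicate 3 it was 3 higher and 2 lower. Mcl1, which protects cells from apoptosis, rose from 2170.1, 2235 and 2551 to 4486, 4475 and 4364 (log2 fold change 0.94, SE 0.052, adjusted p = 2.07e-12), and Bmf, which promotes it, fell from 688, 689 and 595 to 278, 331 and 321 (log2 fold change -1.08, SE 0.083, adjusted p = 2.71e-10). The pro-apoptotic genes Hrk (0.60) and Bcl2l11 (0.35) rose. Of 23 p53 targets 9 rose and 4 fell, or 7 and 8 with upper-quartile scaling. Cdkn1a, the cell cycle inhibitor p21, rose by 0.98 and Plk2 by 1.99 on the log2 scale, but Trp53 (-0.0015) and Bax (-0.012) were not called.

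Many regulators of RNA were called. Of 45 mRNA decay genes 26 rose and 9 fell (median 0.20). Noct, a circadian enzyme first described as a deadenylase, rose from 802, 783 and 878 to 4330, 4260.1 and 4147 (log2 fold change 2.37, SE 0.051, adjusted p = 4.15e-20), Samd4, a homolog of the fly repressor Smaug, from 1806, 1586 and 1887 to 4405, 4863 and 4749.6 (log2 fold change 1.41, SE 0.056, adjusted p = 1.86e-14), and the Regnase family gene Zc3h12c from 592, 663 and 650.1 to 1364, 1257 and 1307 (log2 fold change 1.04, SE 0.061, adjusted p = 2.78e-12). Replicates were close in each group. Rc3h1, the decay factor Roquin, rose by 0.76. Of 22 genes of the super elongation complex and P-TEFb, which release paused RNA polymerase, 11 rose and 2 fell. Aff1, a scaffold of the complex, rose from 4384, 4290.5 and 4429 to 11170, 11696 and 11586 (log2 fold change 1.39, SE 0.041, adjusted p = 1.12e-17), and the histone H3K79 methyltransferase gene Dot1l from 933, 889 and 862 to 2269, 2209.6 and 2138 (log2 fold change 1.30, SE 0.052, adjusted p = 2.72e-15). Of 26 SR splicing factors and related kinases 15 rose and 2 fell, led by Srsf2 (0.60) and Srsf5 (0.56). Histone methylation genes rose in 14 and fell in 7 of 39, with the H3K27 demethylase gene Kdm6b higher (0.96) and the H3K27 methyltransferase gene Ezh1 lower (-0.91).

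Cell cycle genes were called in opposite directions by phase. Of 33 G1/S and replication genes 15 rose and 2 fell, with a median of 0.093. With upper-quartile scaling or without OxA replicate 1, 4 fell. Cdt1, a replication licensing factor, rose from 1508, 1616 and 1504 to 2779.7, 2499 and 2219 (log2 fold change 0.70, SE 0.066, adjusted p = 2.15e-07), and Ccne1, cyclin E1, from 679.7, 684 and 642 to 1089.6, 977 and 943 (log2 fold change 0.58, SE 0.065, adjusted p = 1.39e-07). Of 35 G2/M and mitosis genes 1 rose and 17 fell, with a median of -0.12. Bub1b, of the spindle checkpoint, fell from 2654, 2472 and 2727 to 1903, 1767 and 1869 (log2 fold change -0.50, SE 0.049, adjusted p = 1.80e-08), and Kif20a, a kinesin of cytokinesis, from 2841, 2563 and 2615 to 1997, 1877 and 1992 (log2 fold change -0.45, SE 0.049, adjusted p = 1.01e-07). These differences were small and separated the groups in every gene named, as in 95.8% of all called genes. Kinesin genes, some of which are mitotic, fell in 14 and rose in 4 of 31, and primary cilium genes fell in 12 and rose in 2 of 44, led by Mks1 (-0.73).

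Ribosomal protein and respiratory chain genes were seldom called. Only 6 of 81 ribosomal protein genes were called, all higher by small amounts apart from Rpl7l1 (0.51), a ribosome biogenesis paralog, with 0 lower by edgeR, by DESeq2 or at an unadjusted p under 0.05. With upper-quartile scaling 1 was higher and 1 lower, with the replicate block 13 were higher and without vehicle replicate 2, 3 were. Of 87 nuclear genes of the respiratory chain 5 rose and 2 fell, or 1 and 11 with upper-quartile scaling, and the count higher was 0 to 3 when vehicle replicates 1, 2 or 3 or OxA replicates 1 or 2 were left out. Among 8 reference genes of the study's qPCR only Actb (0.21) and Polr2a (-0.16) were called, and the call of Polr2a was lost in 4 alternatives, without vehicle replicate 1 or 2 among them. Zinc finger genes named Zfp fell more often than they rose, with 104 of 294 lower and 40 higher (median -0.16). Zfp775 fell from 91.0, 87.8 and 88.7 to 33.8, 33.1 and 37.1 (log2 fold change -1.36, SE 0.18, adjusted p = 1.38e-06) and Zfp521, a regulator of neural differentiation, from 624, 653 and 586 to 251, 279.7 and 313 (log2 fold change -1.14, SE 0.083, adjusted p = 1.18e-10), whereas Zfp697 rose (1.30). Of 213 solute carrier genes 42 rose and 44 fell, shares of 19.7% and 20.7% that are near the background, and they included large rises of the phosphate transporter gene Slc20a1 (2.40) and the zinc exporter gene Slc30a1 (1.38). By DESeq2 28 solute carrier genes fell, where 2124 of all 16110 tested genes fell. Predicted genes named Gm rose in 217 and fell in 213 of 2076, fewer than the background in either direction, and by DESeq2 142 and 114.

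Non-coding transcripts changed alongside neighbouring genes. Of 103 annotated non-coding genes up 2-fold, 25 (24.3%) overlapped or lay within 10 kb of a protein-coding gene that was itself up 2-fold, compared with 65 of 2740 tested non-coding genes (2.37%). Of these 25 pairs 20 overlapped, 13 on opposite strands and 7 on the same strand. 9830144P21Rik, which lies opposite the phosphate transporter gene Slc20a1, rose by 2.38 on the log2 scale beside 2.40 for its partner. In the Lmcd1 locus 5031434C07Rik (2.95), on the opposite strand, and Gm44193 (2.99), on the same strand, rose by nearly the same amount as Lmcd1 (3.00). Gm26626 (2.62) lies opposite Runx1 (2.66), a transcription factor gene. Gm17034 (3.28), opposite Hk2 (1.60), and Gm36970 (3.79), within Col6a3 (1.53), had larger fitted rises than their partners, but their vehicle samples held at most 2.89 normalized counts, so the fitted size depends on the prior count. The pairs with Runx1, Hk2 and Col6a3 were named after their values were seen, and shared reads cannot be told apart from separate transcription.

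**Figure D4:**
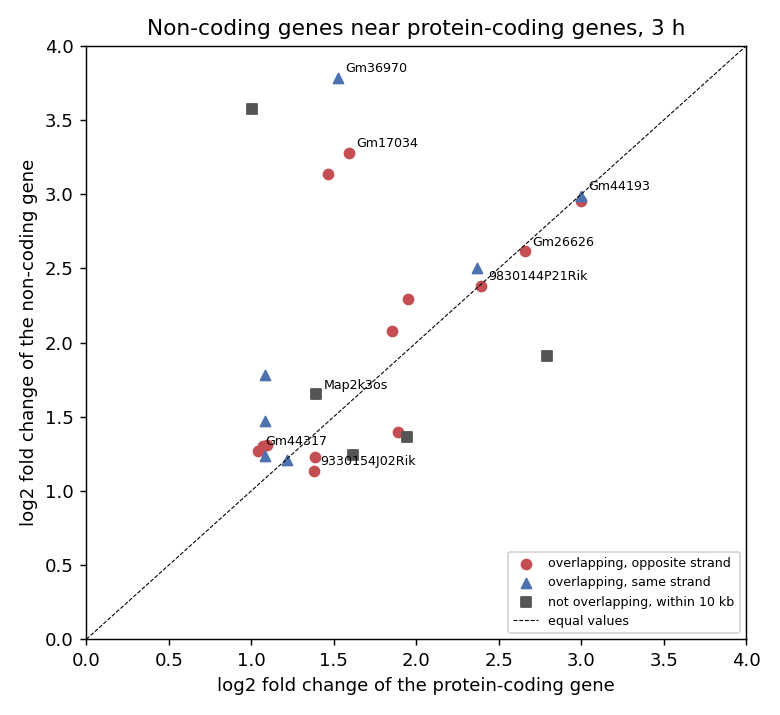
log2 fold change (OxA 3 h minus vehicle) of 25 non-coding genes up 2-fold against that of the protein-coding gene up 2-fold that they overlap or lie within 10 kb of, by strand relation. The dashed line marks equal values, near which Gm44193 and 9830144P21Rik lie, while Gm36970 and Gm17034 lie above it.

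At the imprinted Dlk1-Dio3 locus 4 of 8 listed genes were tested, and 3 of them rose, with 0 lower by edgeR, by DESeq2 or at an unadjusted p under 0.05. Rtl1, a retrotransposon-derived gene, rose from 37.1, 54.0 and 58.8 to 155, 162 and 143 (log2 fold change 1.62, SE 0.16, adjusted p = 2.69e-08), and the non-coding Mirg (1.78) and Rian (1.24), named after their values were seen, rose too, while Begain was not called (0.25). Host genes of small nucleolar RNAs rose in 8 and fell in 0 of 12 by edgeR, with 0 lower by DESeq2 or at an unadjusted p under 0.05. The count higher was 5 by DESeq2, with upper-quartile scaling and without vehicle replicate 1 or 2. Among them was Snhg17, which rose from 447, 436 and 423 to 765, 748 and 814 (log2 fold change 0.83, SE 0.068, adjusted p = 7.77e-10).

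The 8 h OxA samples give the only values at a time matched to vehicle, and both comparisons use the same vehicle samples, so the values are set side by side without a test of their likeness. For Nfatc2 the log2 fold change was 1.40 at 3 h and 0.23 at 8 h (adjusted p = 0.537). Ccdc81 and Pla2g2e had values of 1.29 and 1.28 at 8 h, close to those at 3 h, and Tnfaip3 had 0.97. Of the genes that fell, Tmem53 had -0.89, Hykk -0.30 and Xrcc6bp1 -0.0042 at 8 h. Vim (0.70) was also higher than vehicle at 8 h, and Kif5c (-0.071, adjusted p = 0.183) was not called.

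Values at 8 h varied among the named list members. Areg (4.38), Sema7a (4.46), Cd44 (1.84) and Chst11 (1.78) had 8 h log2 fold changes at least as large as at 3 h. Adra1b (0.21), Sik1 (0.097), Aff1 (0.17) and Ppm1k (-0.23) had small values at 8 h, of which only that of Aff1 was called. In the direct comparison of OxA samples, which uses no vehicle, Aff1 was lower at 8 h than at 3 h by 1.22 on the log2 scale (adjusted p = 4.22e-14), and Cd44 was higher by 0.47 (adjusted p = 1.32e-06). These genes were picked after their values were seen. For a gene called at 3 h alone, the time since the medium change was not matched by any vehicle sample.

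**Figure D5:**
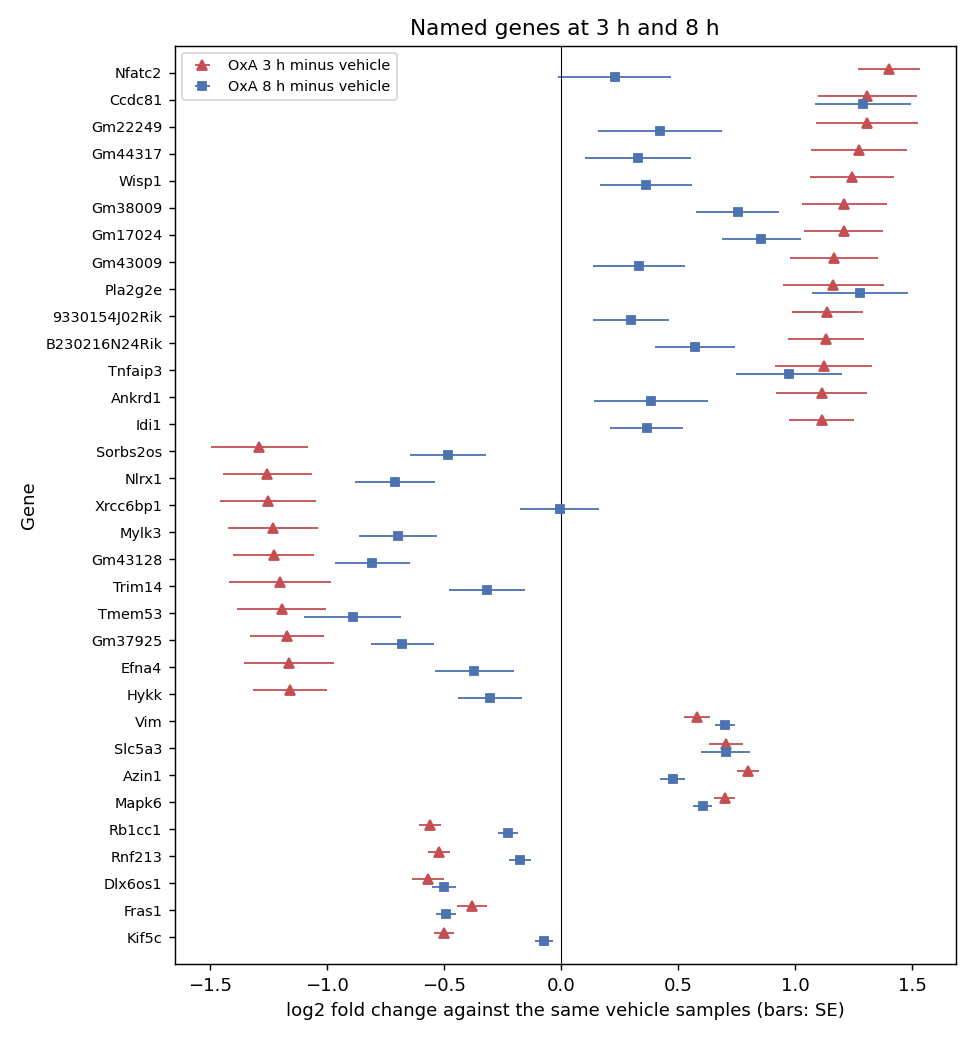
log2 fold change against the same vehicle samples after 3 h (red triangles) and 8 h (blue squares) of OxA, with SE bars, for 14 of the 15 largest rises, the 10 largest falls, 4 of the 5 largest gains and the 5 largest losses in counts. Nfatc2 stands at 1.40 and 0.23, and Ccdc81 and Pla2g2e at similar values at both times.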

How the data were processed

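RNA-Seq libraries of 3 vehicle and 3 OxA 3 h samples of GT1-7-OX1 cells were compared, and 3 OxA 8 h samples were used only for the values at 8 h. Per the labels and the methods of the study, the authors made strand-specific total RNA libraries depleted of ribosomal RNA, trimmed reads with Trimmomatic (0.3 in the deposited notes), aligned them to mm10 with STAR 2.5.2a and deposited raw counts per gene symbol from HTSeq 0.6.0. The gene annotation and the strand setting of the counting are not given in the sources used here, so reads in overlapping genes are uncertain. TPM values deposited by the authors, whose computation is likewise not given, were used for cell type markers only. Counts divided by size factors and tables of the authors' own comparisons (fold changes and p-values from DESeq2 1.10.1) were also deposited and were not used.

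Raw counts were tested with edgeR 4.0.16 (limma 3.58.1, R 4.3.3): filterByExpr, TMM scaling, robust quasi-likelihood fit of the 6 samples, and Benjamini-Hochberg adjustment over the 15352 genes kept. Genes with adjusted p under 0.05 were called. Normalized counts are counts divided by library size times TMM factor, on the scale of the mean library. The script was tested on simulated data. The labels do not say whether a replicate number marks a shared round of preparation, and samples with the same number did not deviate together in every pair, so the main fit has no block. Alternatives were DESeq2 1.42.0, RLE and upper-quartile scaling, no filter, a fit of all 9 samples, a replicate block and leaving out each sample.

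Members and lists were chosen with earlier results of these data known. Named genes were the 15 largest rises and 10 largest falls, and the 5 largest gains and losses in counts, among called genes averaging 50 or more normalized counts, with no overlap between groups and no mention in the tables or text of the study or an earlier account, and up to 4 called members of each list with the largest changes and that average. A few of these genes and 1 list are not reported here. Gene positions, types and exons came from GENCODE M21 by symbol, and promoters from RefSeq (GRCm38.p6). Figures were drawn with matplotlib 3.10.9 and tables made with pandas 2.3.3.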

Additional observations from a re-analysis of the deposited data

Results flagged for a closer look

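Of the 229 named genes, 4 were called in opposite directions against vehicle at 3 h and at 8 h, with a called difference between the OxA samples at 8 h and 3 h (edgeR's quasi-likelihood test, n = 3 per group). Foxo6, a forkhead transcription factor, had a log2 fold change of 0.82 at 3 h and -0.30 at 8 h, a difference (8 h minus 3 h) of -1.12 (SE 0.082, adjusted p = 1.85e-09). Bcl2l11, the pro-apoptotic BIM, had 0.35 and -0.21, a difference of -0.56 (SE 0.058, adjusted p = 2.95e-07). Glul, glutamine synthetase, had 0.24 and -0.21, a difference of -0.44 (SE 0.046, adjusted p = 2.95e-07). Kdr, a VEGF receptor, had 0.21 and -0.47, a difference of -0.67 (SE 0.084, adjusted p = 3.36e-06), and its call at 3 h was lost in 8 of the alternatives. All comparisons with vehicle share the same 3 vehicle samples.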

How the results depend on the processing

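The counts of called genes, and of those that changed 2-fold, stayed within 1.5 times their value under every alternative run. DESeq2 called 4783 genes, upper-quartile scaling 6145, and leaving out single samples 5016 to 5776, of which 2655 to 2961 were higher and 2358 to 2826 lower. Changes over 2-fold numbered 440 to 493 up and 199 to 256 down without single samples. The share of called genes that rose was 52.0%, and 39.5% with upper-quartile scaling, which moved the median log2 fold change by -0.060. The replicate block called 6500 genes. Same-numbered samples deviated from their group means with correlations of 0.103, 0.0076 and 0.033, too low in every pair but the first to show that the numbers pair the samples, and vehicle replicate 3 correlated best with OxA replicate 2 (0.065). No named gene changed direction in any alternative, and 0 to 10 of the 229 lost their call in each. Those that lost it anywhere were Acads, Atp5l, Bckdhb, Col1a2, Hist1h4b, Hist3h2a, Hist3h2ba, Kdr, Ndufaf4, Polr2a, Rpl10a, Rpl12, Rpl35 and Tubg1. Of 114 list counts, DESeq2 moved 21, upper-quartile scaling 25 and leaving out single samples 10 to 19. Genes under about 50 normalized counts, such as most predicted loci, are limited by depth.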
